A study of Caenorhabditis elegans with 6 samples.

Results

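This section describes 6 microRNAs (miRNAs) of Caenorhabditis elegans that are linked to lifespan and stress resistance: miR-34, miR-71, miR-238, miR-239a, miR-239b and miR-246. They were taken by the target name of the array spots, and they are 6 of the 108 miRNA oligos on the array. All 6 were present, each printed as 4 spots, and all 6 exceeded the filter on dim signal that left 94 oligos for testing. The groups were fem-3(q20ts) and fem-2(b245ts), both held at 25 °C and collected as synchronized whole-animal populations on day 1 of adulthood, 24 hours beyond late L4. Every animal therefore carried a temperature-sensitive allele of a sex determination gene and was raised at the same temperature, and no wild-type animals were part of the comparison. At this temperature the gain-of-function allele q20ts directs germ cells to become sperm and not oocytes, and the loss-of-function allele b245ts directs them to become oocytes and not sperm. Each genotype was measured in 2 biological replicates on 3 arrays, of which 2 were technical arrays of replicate 1. Nothing in the labels says how the 2 replicate populations were separated beyond calling them biological, so the tests measure the spread between these samples.

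miRNAs are short RNAs that Argonaute proteins use to find and repress messenger RNAs, mainly through the seed at their 5′ end. Lifespan in C. elegans is set in part by insulin signalling through the transcription factor DAF-16, and removing the germ line lengthens life. miR-71 is known to be needed for a normal lifespan and for the long life of animals without germ cells. Loss of miR-238 or miR-246 is known to shorten life and loss of the miR-239 genes to lengthen it. miR-34 belongs to a family conserved up to mammals, where it is a target of p53, and in C. elegans it is linked to ageing and the DNA damage response.

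None of the 6 miRNAs passed the test for a difference between the genotypes. In limma 0 of 6 passed an adjusted p of 0.05, and 0 of 6 had an unadjusted p under 0.05. Over all tested miRNAs 8.51% passed the adjusted threshold and 10.6% the unadjusted one. The 8 that passed the adjusted threshold were miR-35 to miR-41, all lower in fem-3(q20ts), and miR-243, which was higher. That share thus comes mostly from the miR-35 to miR-41 group. The mean log2 differences, positive where fem-3(q20ts) was higher than fem-2(b245ts), ranged from -0.26 for miR-239b to 0.54 for miR-246. Of the 6 differences 3 were positive and 3 negative, and their median was 0.024, against a median of 0.14 over all 94 tested miRNAs. Values below are scaled spot intensities, the authors' background-subtracted spot brightness after each array was brought to one total, and each value of an array is the geometric mean of its 4 spots. In these bulk samples of whole animals, fewer cells of a type and less RNA per cell cannot be told apart.

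**Figure D1:**
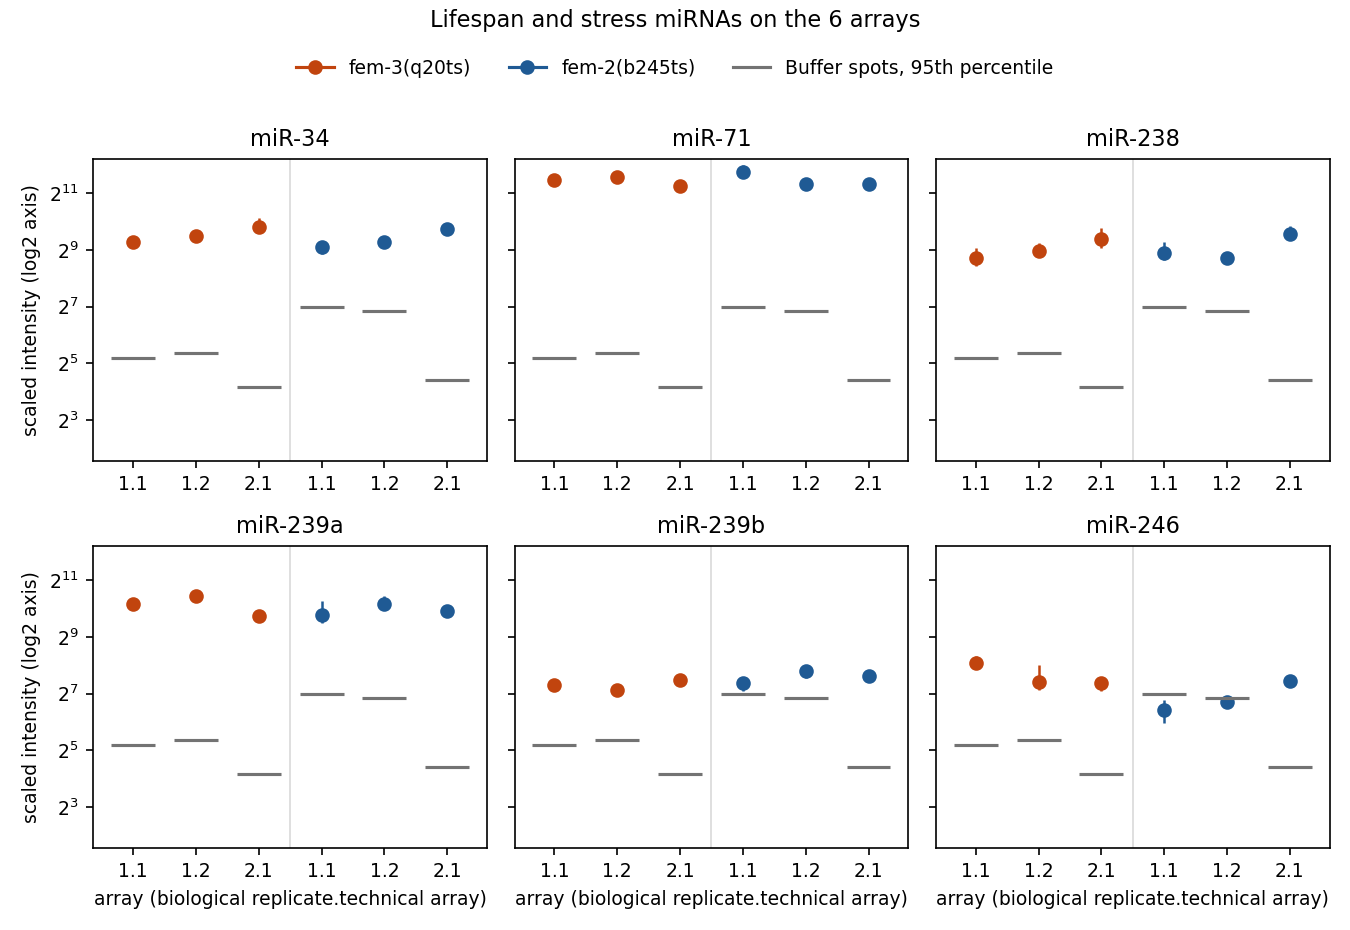
Scaled intensity of each miRNA on the 6 arrays, on a log2 axis, with the fem-3(q20ts) arrays left of the fem-2(b245ts) arrays and each array labelled by biological replicate and technical array. Points are geometric means of 4 spots, vertical lines run from the lowest to the highest spot, and grey bars mark the Buffer level (95th percentile over Buffer spots); only miR-246, on the 2 arrays of fem-2(b245ts) replicate 1, lies under its grey bar.

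Array facts that bear on these values are few. The oocyte and embryo miRNAs miR-35 to miR-41 made up 0.353% to 0.478% of the miRNA signal on fem-3(q20ts) arrays and 11.8% to 14.2% on fem-2(b245ts) arrays. Of 4 somatic tissue markers on the array (miR-1 of muscle, miR-60 of intestine, miR-124 of neurons and miR-228 of glia) 0 passed in limma, with a median difference of 0.42 and 0 at an unadjusted p under 0.05. The brightness of empty spots is given here as the Buffer level, the 95th percentile over the 32 Buffer spots of an array. It was 36.5 and 41.5 on the arrays of fem-3(q20ts) replicate 1, against 127 and 114 on those of fem-2(b245ts) replicate 1. In replicate 2 it was 17.8 in fem-3(q20ts) and 21.4 in fem-2(b245ts). Together the 6 miRNAs gave 5.46% to 6.74% of the miRNA signal on fem-3(q20ts) arrays and 5.94% to 7.17% on fem-2(b245ts) arrays. As a share of the miRNA signal without miR-35 to miR-41 they gave 5.48% to 6.77% on fem-3(q20ts) arrays. On fem-2(b245ts) arrays they gave 6.90% to 8.14%, and these ranges over single arrays, technical arrays included, did not overlap. This share was not computed for other miRNAs, so the gap is not a result about the 6. With arrays scaled to the miRNAs outside miR-35 to miR-42, the median log2 difference of all tested miRNAs was -0.19. Arrays with one replicate number share a date-like token in the labels, which do not say what it marks. If it marks an array batch, each batch held both genotypes, and this was not tested.

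miR-71 was bright on every array and close to equal in the genotypes. Its intensity in fem-3(q20ts) was 2784 and 3043 on the arrays of replicate 1 and 2406 on that of replicate 2. In fem-2(b245ts) it was 3389 and 2527 in replicate 1 and 2574 in replicate 2. The ranges of the 2 genotypes overlapped, and the highest and the second lowest value both came from the technical arrays of one fem-2(b245ts) sample. Over biological samples miR-71 averaged 2658 ± 357 in fem-3(q20ts) and 2750.2 ± 249 in fem-2(b245ts) (SD, n = 2 each). The genotypes differed by -0.053 on the log2 scale (SE 0.31; limma adjusted p = 0.909), with -0.0076 in replicate 1 and -0.097 in replicate 2. Its 95% interval of -0.84 to 0.73 corresponds to fold differences between 0.560 and 1.66, and differences within that range are not excluded by this test. With the replicate number as a block, a fit with fewer residual degrees of freedom, the interval narrowed to -0.56 to 0.45.

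miR-34 was also far above the Buffer spots on all arrays. Its intensity was 615, 717 and 889 in fem-3(q20ts), where the first 2 values are the technical arrays of replicate 1, against 542, 612 and 846 in fem-2(b245ts). Replicate 2 was brighter than replicate 1 in both genotypes, by 0.42 on the log2 scale in fem-3(q20ts) and 0.55 in fem-2(b245ts), and both of these gaps exceeded the gap between the genotypes. The log2 difference was 0.14 (SE 0.36, 95% interval -0.79 to 1.06; limma adjusted p = 0.909), with 0.20 in replicate 1 and 0.071 in replicate 2. miR-34 was slightly higher in fem-3(q20ts) in each replicate, and it lay 0.0023 above the median of all tested miRNAs.

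miR-238, miR-239a and miR-239b share a seed and are counted as one family. miR-238 had intensities of 416, 493 and 668 in fem-3(q20ts) and of 471, 422 and 760.0 in fem-2(b245ts), again with the technical arrays of replicate 1 first. The genotypes overlapped, and the brightest array of each was the one of replicate 2. miR-238 had a log2 difference of -0.081 (SE 0.41, 95% interval -1.14 to 0.98; limma adjusted p = 0.909), with 0.023 in replicate 1 and -0.19 in replicate 2. Among the 6 this miRNA had the widest gap between replicates shared by both genotypes, with replicate 1 lower than replicate 2 by 0.56 in fem-3(q20ts) and by 0.77 in fem-2(b245ts) on the log2 scale.

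miR-239a had intensities of 1144 and 1403 on the arrays of fem-3(q20ts) replicate 1 and of 858 in replicate 2. In fem-2(b245ts) the values were 867 and 1135 in replicate 1 and 954 in replicate 2. Replicate 1 of fem-3(q20ts) held the 2 highest values and replicate 2 of the same genotype the lowest, so the fem-2(b245ts) arrays lay between them. The sample means were 1063 ± 289 in fem-3(q20ts) and 973 ± 27.1 in fem-2(b245ts) (SD, n = 2 each). The log2 difference was 0.10 (SE 0.34, 95% interval -0.77 to 0.97; limma adjusted p = 0.909), positive in replicate 1 (0.35) and negative in replicate 2 (-0.15).

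miR-239b was dimmer, at 159, 139.5 and 178 in fem-3(q20ts) and 167, 225 and 196 in fem-2(b245ts). It was 3.36 to 9.99 times the Buffer level on fem-3(q20ts) arrays and 1.32 to 9.13 times on fem-2(b245ts) arrays. Averaged into biological samples it was 149 and 178 in fem-3(q20ts) and 194 and 196 in fem-2(b245ts), so that the samples did not overlap, although the single arrays did. It was the only one of the 6 whose samples did not overlap. Over all tested miRNAs 44.7% had samples that did not overlap in either direction, and 18.1% did so with fem-3(q20ts) lower. miR-239b had a log2 difference of -0.26 (SE 0.30, 95% interval -1.02 to 0.51; limma adjusted p = 0.718), with -0.38 in replicate 1 and -0.14 in replicate 2. The sign was positive under 3 other scalings of the arrays: quantile normalization (0.20), centring on the miRNA median (0.089) and the spike control (0.30). It was negative on the summed miRNA signal (-0.38) and on that sum without miR-35 to miR-42 (-0.58). Under all of these scalings miR-239b lay below the median of all tested miRNAs.

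Within the family, the differences could also be set against each other, which removes any scaling of a whole array. The log2 difference of miR-239a minus that of miR-239b was 0.36, made up of 0.73 in replicate 1 and -0.016 in replicate 2. For miR-238 minus miR-239b the value was 0.18, with 0.40 in replicate 1 and -0.050 in replicate 2. In replicate 2 the 3 family members thus had nearly the same difference between genotypes, and in replicate 1 they did not. With 2 samples per genotype no exact permutation test of these values can give a two-sided p below 0.333, and none is reported.

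miR-246 had the largest mean difference of the 6 as measured, and this difference came from 1 replicate. Its intensity was 268, 171 and 165 in fem-3(q20ts) and 86.1, 105 and 175 in fem-2(b245ts), with the technical arrays of replicate 1 first. In replicate 2 the genotypes were alike to within 0.085 on the log2 scale, and in replicate 1 both fem-3(q20ts) arrays were above both fem-2(b245ts) arrays. Averaged over biological samples it was 189.2 ± 34.9 in fem-3(q20ts) and 135 ± 56.2 in fem-2(b245ts) (SD, n = 2 each). The log2 difference was 0.54 (SE 0.42, 95% interval -0.52 to 1.61; limma adjusted p = 0.625), with 1.17 in replicate 1 and -0.085 in replicate 2. On the 2 arrays of fem-2(b245ts) replicate 1 the signal was 0.679 and 0.922 times the Buffer level, against 7.34 and 4.12 times on the arrays of fem-3(q20ts) replicate 1. The signal of that fem-2(b245ts) sample was thus under the Buffer level, though above the median Buffer spot of each array. Its signal-to-noise score exceeded 3 on 3 of 4 spots of the first array and 4 of 4 of the second. The size of the difference in replicate 1 and of the mean difference is therefore not exact. Without fem-2(b245ts) replicate 1 the difference was 0.10. The part of the Buffer level in this difference was not tested. Subtracting the median Buffer spot of each array gave 0.69, and those medians (25.9 and 12.2 on the arrays of fem-2(b245ts) replicate 1) lay far under the Buffer level. The difference kept a positive sign under the 19 other tested settings in which miR-246 was measured. Several of these return the same 0.54, namely the replicate block, the other floors, no filter and the trended robust eBayes prior. Replicate 2 alone, which had no test, was negative (-0.085).

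**Figure D2:**
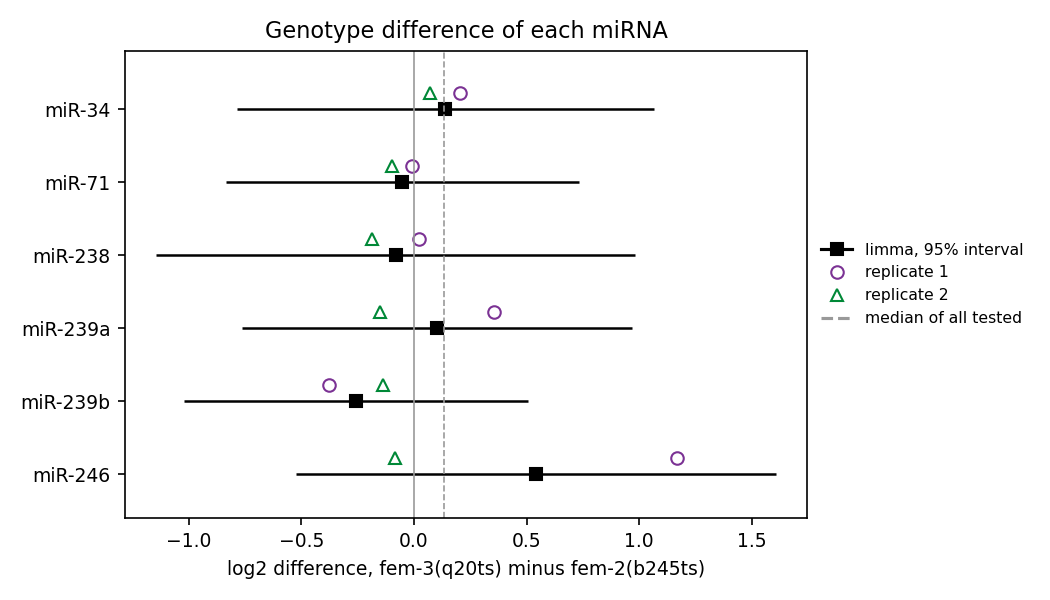
Log2 difference of each miRNA, fem-3(q20ts) minus fem-2(b245ts): squares and lines give the limma estimate with its 95% interval, open circles replicate 1, open triangles replicate 2 and the dashed line the median of all tested miRNAs (0.14). All 6 intervals span 0, and the replicates lie farthest apart for miR-246 (1.17 and -0.085).

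The size of the 6 differences can be read against the error of the arrays. For each of the 6 miRNAs the difference between genotypes was smaller than the larger of the 2 differences between technical arrays of one sample. This held for 58.5% of all tested miRNAs. The genotype difference is between means over samples and the technical one between single arrays, so the comparison is not like for like. Between technical arrays, the absolute log2 difference was largest for miR-246 in fem-3(q20ts) (0.65) and for miR-239b in fem-2(b245ts) (-0.43, array 1 minus array 2). Each genotype difference was also smaller than the larger difference between biological replicates, as for 67.0% of all tested miRNAs. For miR-239b the values were nearly equal, at -0.2573 between genotypes and -0.2574 between replicates of fem-3(q20ts). A gap between replicates that both genotypes share cancels out of the genotype difference, so it does not measure the error of that difference. The median absolute difference was 0.12 for the 6 and 0.44 for all, while the median SE was 0.35 for the 6 and 0.37 for all. The 4 spots of an oligo on one array had an SD of 0.037 to 0.40 on the log2 scale, with a median of 0.17. In the scanner files of replicate 1, 91 of 96 spots of these miRNAs had a signal-to-noise score above 3, and 0 had saturated pixels.

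Of the 6 miRNAs 3 differed in one direction in both replicates, namely miR-34, miR-71 and miR-239b, and 73 of 94 did so among all tested. miR-238, miR-239a and miR-246 were positive in replicate 1 and negative in replicate 2. In replicate 2 miR-34 was the only one of the 6 with a positive difference.

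**Figure D3:**
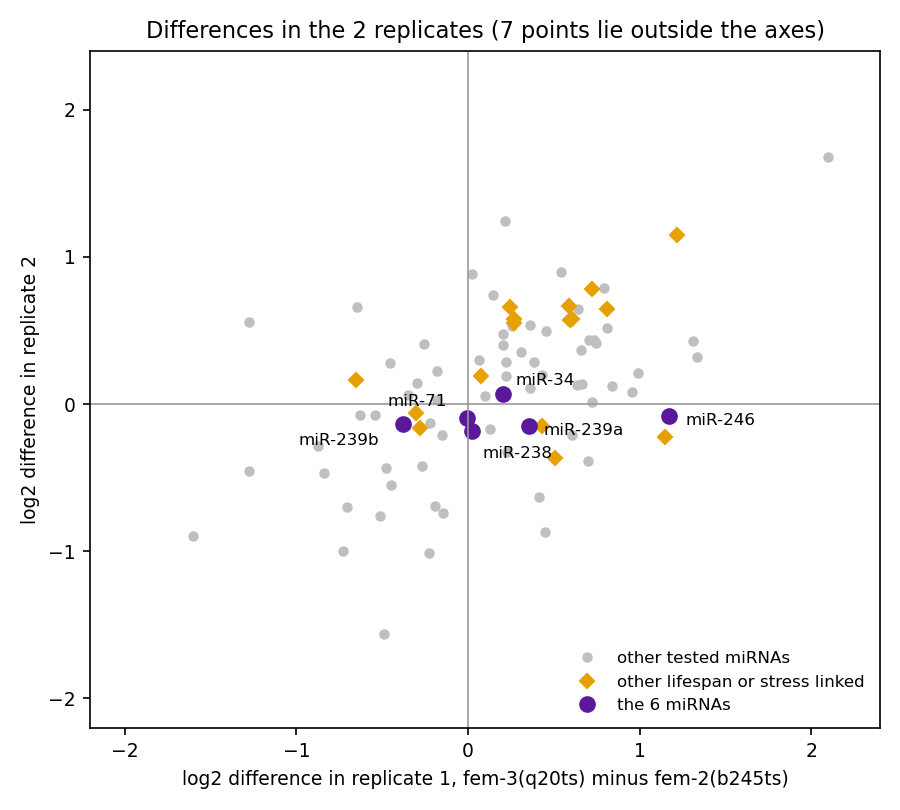
Log2 difference, fem-3(q20ts) minus fem-2(b245ts), in replicate 1 (x axis) and in replicate 2 (y axis) for the 94 tested miRNAs, with the 6 lifespan and stress miRNAs in purple and 16 other miRNAs linked to lifespan or stress as yellow diamonds; 7 points, miR-35 to miR-41, lie outside the axes. The purple points stay within 0.19 of 0 in replicate 2 and spread from -0.38 to 1.17 in replicate 1.

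How the arrays were scaled moved the 6 miRNAs, by the same amount wherever a whole array was scaled by a factor. Quantile normalization and subtraction of the Buffer median moved them by unequal amounts. Under the authors' scaling 3 of 6 were positive, against 2 on the summed miRNA signal, 1 when miR-35 to miR-42 were left out of that sum, 5 after quantile normalization, and 6 on the miRNA median or on the spike control. The median of all tested miRNAs moved with them, from -0.19 to 0.70 over these scalings. Set against that median, the main values were -0.39 for miR-239b, -0.22 for miR-238, -0.19 for miR-71, -0.035 for miR-239a, 0.0023 for miR-34 and 0.41 for miR-246. Scaling a whole array by a factor leaves these values unchanged by construction. Over the settings that could change them they ranged from -0.62 to -0.090 for miR-239b, from -0.47 to -0.064 for miR-238, from -0.66 to 0.039 for miR-71 and from -0.18 to 0.96 for miR-246. Under quantile normalization miR-71 moved the other way from the other 5, to -0.37, with the other 5 between 0.16 and 0.90. The limma test called 0 of the 6 under each of the 20 alternatives that gave a test, and their lowest adjusted p was 0.191, for miR-246.

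**Figure D4:**
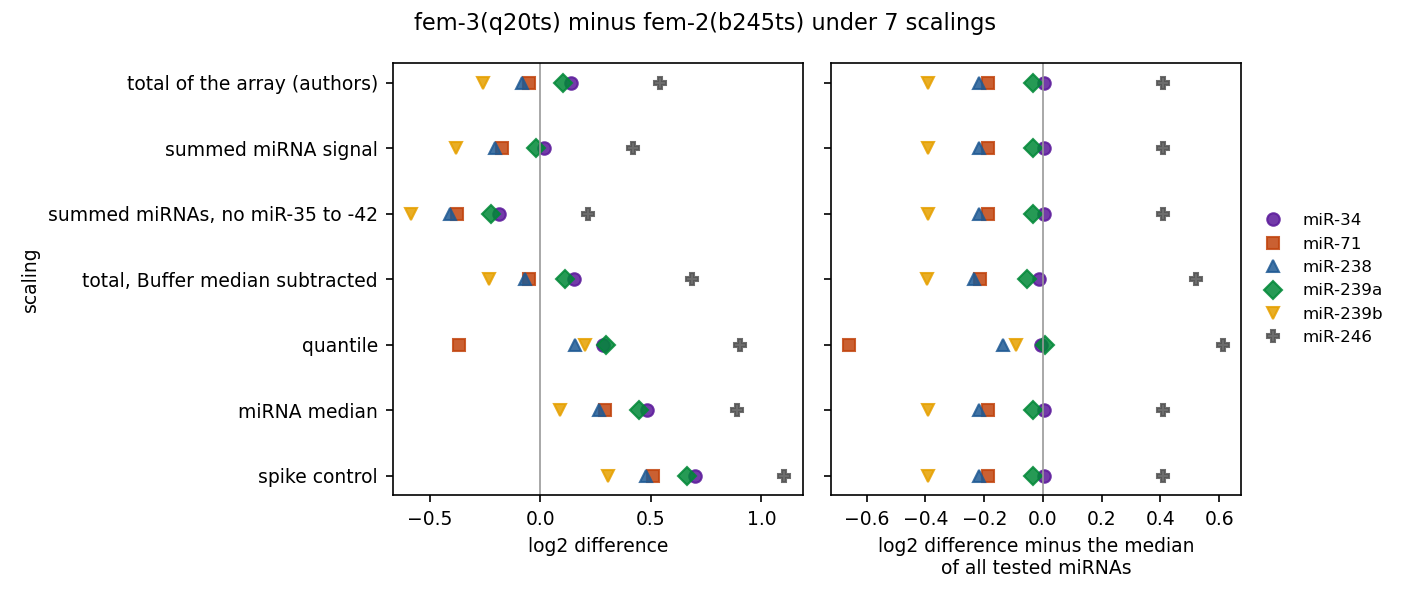
Log2 difference, fem-3(q20ts) minus fem-2(b245ts), of the 6 miRNAs under 7 scalings of the arrays (rows), as such on the left and after subtraction of the median of all tested miRNAs on the right. On the left the number of miRNAs above 0 runs from 1 to 6, and on the right 5 of the 7 rows show the same values.

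Another 16 miRNAs with known links to lifespan or stress were read from the same fit. The list held the timing miRNAs lin-4, let-7, miR-84, miR-241 and miR-237, the diet-linked miR-80 and miR-228, miR-60 of the oxidative stress response, the heat-linked cluster of miR-64, miR-65, miR-66 and miR-229, miR-67 and miR-233 of the response to pathogens, miR-83 and miR-124. None of the 16 passed in limma, and 1 had an unadjusted p under 0.05. That one was lin-4, which is required for normal lifespan, with intensities of 1307 ± 378 in fem-3(q20ts) and 578 ± 185 in fem-2(b245ts) (SD, n = 2 each). It was 1.18 higher in fem-3(q20ts) on the log2 scale (SE 0.40; limma adjusted p = 0.299), and under the replicate block it passed, at a limma adjusted p of 0.0417. With that block 0 of the 6 had an unadjusted limma p under 0.05, against 6 of the 16 and 28 of all 94. miR-241 had the smallest difference, 0.070 (SE 0.35). Of the 6 miRNAs described above 3 had positive and 3 negative differences, with a median of 0.024, against 13 positive and 3 negative with a median of 0.44 in the list of 16. Under the other scalings the positive ones in the list numbered 10 to 16. Samples that did not overlap, with fem-3(q20ts) higher, were seen for 0 of the 6, against 7 of the 16 and 26.6% of all tested miRNAs. The 2 lists were not tested against each other.

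For each of the 6 the miRNAs with the most similar profile were sought, by the distance between log2 values centred on their own mean over the 4 biological samples. The closest was miR-244 to miR-34, at 0.11, then miR-75 at 0.21. miR-238 was nearest to miR-252 (0.12) and then to miR-34 (0.28). miR-71 was nearest to miR-62 (0.19) and miR-227 (0.19), and miR-239a was nearest to miR-71 (0.27) and miR-242 (0.31). miR-239b lay nearest to miR-84 (0.27) and the muscle miRNA miR-1 (0.27), and miR-246 to miR-64 (0.27) and miR-240 (0.32). The median distance between any 2 tested miRNAs was 1.10. For each of the 6, its own median distance to the other tested miRNAs was smaller, from 0.73 for miR-34 to 0.97 for miR-246. The 3 members of the shared-seed family were not each other's nearest, at 0.68 for miR-239a and miR-239b, 0.60 for miR-238 and miR-239b and 1.00 for miR-238 and miR-239a. These distances over 4 samples take in differences between replicates as well as between genotypes.

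The genes of the 6 lie on 4 chromosomes in the RefSeq annotation of WBcel235, used here for names and neighbours. The gene of miR-34 is on chromosome X between gbb-1, of a GABA receptor subunit, and aakg-3, of an AMP-activated kinase subunit. The miR-239a and miR-239b genes (mir-239.1 and mir-239.2) are neighbours on chromosome X with no protein-coding gene between them, beside rsd-3, which is required for systemic RNA interference. The gene of miR-71 lies within ppfr-1 on chromosome I, that of miR-246 is on chromosome IV beside fic-1, and that of miR-238 is on chromosome III. The miRNA genes flanking these were looked up after the values of the 6 had been seen. mir-238 lies between mir-80 and mir-90 with no protein-coding gene in between, and the log2 differences were -0.081 for miR-238, against 0.73 (SE 0.30) for miR-80 and 0.34 (SE 0.34) for miR-90. Next to mir-71 is mir-2, with -0.053 for miR-71, against 0.39 (SE 0.29) for miR-2. Neither these neighbours nor the 6 passed the test, and the differences between neighbours were not tested.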

How the data were processed

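Per the labels, gel-purified small RNA of whole adults received a Cy3 label by ligation and was read on spotted arrays in 1 colour. The authors deposited linear spot intensity scaled to the total of each array, per the labels. For the 4 arrays of replicate 1 the deposited scanner files also gave mean spot and background intensity, a signal-to-noise score and the percent of saturated pixels, per the file headers. The sources used here do not give the scanner or its software. On all 24 spots of the 6 miRNAs on each of these arrays the deposited table equalled spot minus background, times 1 factor per array. Spot names came from these files and were carried over by spot number to replicate 2, for which no scanner file was used here.

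Values below 12.8, the 10th percentile of all positive intensities, were set to it, and all were put on the log2 scale and averaged over spots and then over technical arrays. An oligo entered the test if its mean exceeded the mean 95th percentile of the Buffer spots (36.5). The test was limma 3.58.1 (lmFit and eBayes) in R 4.3.3 over 94 miRNAs, two-sided, with Benjamini-Hochberg adjustment, 2 residual and 3.05 prior degrees of freedom. It was also tried on simulated data that took the means and the median SE of this fit. Their noise was independent between samples, with no deviation shared by replicates. The number of arrays limits the precision. The main test had no replicate block, so its SEs, intervals and p-values ignore any pairing. Only the differences within a replicate and the replicate block took the replicate numbers as pairs. The block left fewer residual degrees of freedom than the main fit, so its SEs, intervals and calls rest more on the eBayes prior. Arrays with one number share a date-like token in the labels. The deviations of replicate 1 from replicate 2 correlated between genotypes over the tested miRNAs (r = 0.711). The 6 miRNAs and all lists were chosen with earlier results of these data known. Named were the 6, the 2 nearest profiles of each, family members, and from the list of 16 the largest, the smallest and any called difference. Alternatives covered scaling, background, floor, filter, spots, technical arrays, the eBayes prior, the replicate block and left-out samples. Probe and miRNA sequences were not used here.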

Additional observations from a re-analysis of the deposited data

How the results depend on the processing

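The 6 miRNAs were recomputed under 23 alternatives, 20 of them with a limma test, and 0 of 6 passed under any of the 20. With the replicate block 0 of 6 passed and the lowest limma adjusted p was 0.358. That block gave 9 calls over all miRNAs, against 8 without it, and 1 call (lin-4) among the 16 other lifespan and stress miRNAs, against 0. The stricter filter kept 59 oligos, dropped miR-246 and left 4 calls in all. Signs of these small differences were not stable. With the miRNAs outside miR-35 to miR-42 as the scale, miR-34 was at -0.19, miR-239a at -0.22 and the median of the 6 at -0.30, and on the summed miRNA signal miR-239a was at -0.021. Quantile normalization gave 0.16 for miR-238, 0.20 for miR-239b and a median of 0.24. Centring on the miRNA median gave 0.29 for miR-71, 0.26 for miR-238, 0.089 for miR-239b and a median of 0.37. The spike control gave 0.51 for miR-71, 0.48 for miR-238, 0.30 for miR-239b and a median of 0.59. With technical array 2 only, miR-71 was at 0.086 and miR-238 at 0.019. Starting from the scanner files (replicate 1; normexp, then quantile) gave 0.32 for miR-34, 0.26 for miR-238, 0.51 for miR-239a, -0.0097 for miR-239b and a median of 0.29. Leaving out 1 biological sample gave -0.14 to 0.42 for miR-34, -0.19 to 0.085 for miR-71, -0.47 to 0.30 for miR-238, -0.18 to 0.38 for miR-239a, -0.39 to -0.13 for miR-239b, 0.10 to 0.98 for miR-246 and -0.050 to 0.19 for the median of the 6. These causes were not tested. The 95% intervals without the block take in differences of about the size of miR-246's, in at least one direction. A modest difference in any of the 6 is thus not excluded. With the block the intervals were -0.37 to 0.65 for miR-34, -0.56 to 0.45 for miR-71 and -0.61 to 0.45 for miR-238. They were -0.55 to 0.75 for miR-239a, -0.79 to 0.28 for miR-239b and -0.60 to 1.69 for miR-246.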
